A study of Mus musculus with 49 samples.

Results

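The enzymes that add or remove methyl groups at lysines 4 and 27 of histone H3 were followed in single late 2-cell mouse embryos after acute depletion of the general transcription factor TBP or of the forkhead factor FOXJ3. The 10 genes were chosen by symbol, through the Ensembl identifier of each in the GENCODE annotation of GRCm38, and all 10 were found among the 54838 genes of the count tables. They are the H3K4 methyltransferases *Kmt2a*, *Kmt2b* and *Kmt2d*, the H3K4 demethylases *Kdm5a* and *Kdm5b*, the core subunits *Ezh2*, *Eed* and *Suz12* of Polycomb repressive complex 2 (PRC2), and the H3K27 demethylases *Kdm6a* and *Kdm6b*. The rule that picked them used gene symbols and no measured value.

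All embryos had the genotype label F1(C57BL/6JxCBA/H), and the paper states that F1 females were mated with F1 males, so that F1 describes the parents. All went through Trim-Away, in which an injected antibody directs its target protein to the ubiquitin ligase TRIM21. Zygotes received an antibody and, 4 h later, mRNA for mCherry-Trim21, and each embryo was lysed with ERCC spike-in RNA 48 h after hCG and sequenced as its own Smart-seq+5' library. The TBP experiment had 9 TBP LOF (loss of function) embryos given the anti-TBP antibody and 10 CONTROL embryos given mouse IgG. The FOXJ3 experiment had 17 FOXJ3 LOF embryos given the anti-FOXJ3 antibody and 13 CONTROL embryos given rabbit IgG, in 2 library batches. The CONTROL embryos therefore also carried antibody and Trim21 mRNA, and no uninjected embryos were analysed here.

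H3K4 trimethylation marks active promoters, and in the mouse it also covers broad domains that the oocyte passes on to the embryo. KDM5A and KDM5B remove this mark, and the loss of the broad domains in late 2-cell embryos, when the embryo's own genome is switched on, is known to need them. PRC2 places H3K27 methylation on silent genes, with EZH2 as its catalytic subunit, EED as the subunit that reads the mark and SUZ12 as the scaffold, and KDM6A and KDM6B remove it.

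Of the 49 embryos, 47 passed the quality limits, namely 9 TBP LOF and 9 CONTROL, and 16 FOXJ3 LOF and 13 CONTROL, with between 1103569 and 5434808 counted reads per embryo. *Tbp* mRNA itself was lower in TBP LOF embryos, at 6.59 to 151 normalised reads against 195 to 672 in CONTROL (log2 fold change −2.14, SE 0.37, edgeR adjusted p = 5.3e-06), although Trim-Away acts on the protein. *Foxj3* mRNA did not pass the test in FOXJ3 LOF embryos (0.28, SE 0.13, adjusted p = 0.861), so that its level does not check those labels. The share of spike-in reads was 4.29 ± 1.19% over the 9 TBP LOF embryos and 2.76 ± 0.37% over the 9 CONTROL embryos (mean ± SD). This difference passed an exact two-sided permutation test (p = 0.000823, or 0.00494 after adjustment for 6 comparisons). All 4 late 2-cell marker transcripts were detected in every group. On spike-in scaling they summed to 214 to 678 normalised reads in TBP LOF and to 170 to 507 in CONTROL embryos, and 0 of the 4 passed the test (edgeR, 1 at an unadjusted p under 0.05, *Zscan4c*, at −1.24). The markers were *Zscan4c*, *Zscan4d*, *Zfp352* and *Eif4e3*. The paper reports *Zscan4a-f*, *Zfp352* and *Eif4e3* as unaffected in these same embryos. This outcome was thus known beforehand and does not check the stage of the embryos. The paper also places TBP LOF embryos nearer to earlier stages in a principal component analysis. All 5 transcripts stored by the oocyte were detected too, and they summed to 515 to 2142 normalised reads in TBP LOF and to 654 to 1229 in CONTROL embryos. Of these 5, *Zp3* alone passed the test, with a decrease (−1.83, SE 0.34, adjusted p = 2.3e-05). The log2 fold changes of *Gdf9* (0.093), *Bmp15* (0.69), *Ooep* (0.16) and *Nlrp5* (0.085) were positive and did not pass. *Bmp15* had an unadjusted p of 0.0257 (edgeR, adjusted p = 0.0753). As a share of the reads of an embryo, without spike-in scaling, the oocyte transcripts summed to 524 to 945 CPM (reads per 1000000 gene and transposable element reads) in TBP LOF and to 302 to 501 CPM in CONTROL embryos, and the late 2-cell transcripts to 199 to 380 and 83.6 to 234 CPM. The part of these transcripts in the results below was not tested. Of 6 cumulus cell markers, 3 to 5 were at 0 reads in all embryos of a group, and the sum reached at most 24.0 CPM in any embryo.

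RefSeq promoter windows (GRCm38.p6, 250 bases before to 50 after the start) were at hand for 7 of the 10 genes, namely *Kmt2a*, *Kmt2d*, *Kdm5b*, *Ezh2*, *Eed*, *Suz12* and *Kdm6a*. They are shown because TBP is known for binding the TATA box, and 3 of the 4 genes that fell after TBP depletion are among them. The 60 bases before the start are given for these 3 and for *Suz12*, which encodes the partner subunit of *Ezh2* and *Eed* and did not pass the test, with CpG dinucleotides in capitals. The start is that of RefSeq, which lies 311 bases inside the *Ezh2* gene, 7 bases inside *Kdm5b* and *Eed* and at the first base of *Suz12* in the GENCODE annotation whose gene coordinates are given below.
Kdm5b, chr1:134560118-134560177, plus strand: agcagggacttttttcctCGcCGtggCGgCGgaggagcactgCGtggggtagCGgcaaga
Ezh2, chr6:47595031-47595090, minus strand: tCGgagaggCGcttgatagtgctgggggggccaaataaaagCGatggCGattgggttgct
Eed, chr7:89980977-89981036, minus strand: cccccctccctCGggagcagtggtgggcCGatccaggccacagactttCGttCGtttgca
Suz12, chr11:79993046-79993105, plus strand: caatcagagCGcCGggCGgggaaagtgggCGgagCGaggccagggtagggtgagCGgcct

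The TATA box letters TATAAA, searched on both strands, were in 0 of these 7 windows, against 13.6% of 32851 windows of the same length. On the same strand and within 40 to 11 bases before the start, they were in 2.08% of all windows. At such shares 7 windows are too few to show a difference, and variants of these letters were not searched. CpG dinucleotides numbered 17 in the *Kdm5b* window, 31 in *Ezh2*, 17 in *Eed* and 41 in *Suz12*, where the median of all windows was 7. The forkhead letters GTAAACA, also searched on both strands, were in 3.65% of all windows and in 1 of the 7, that of *Eed*, where they began 150 bases before the start. Capitals mark them in the 47 bases around them, since this was the only match among the 7 windows.
Eed, chr7:89981100-89981146, minus strand: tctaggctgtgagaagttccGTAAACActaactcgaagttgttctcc

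The first question was which of the 10 genes changed in mRNA count after TBP depletion. Values of the TBP experiment are read counts scaled to the ERCC spike-ins, which keeps a change in the total RNA of an embryo visible. Only reads from transcript 5' ends were counted, and no levels are ranked between genes. Each library was a whole embryo, and the paper states the same collection stage for LOF and CONTROL embryos. Values are therefore per embryo, and RNA per cell was not measured.

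After TBP depletion, both H3K4 demethylases and the PRC2 subunits *Ezh2* and *Eed* fell on spike-in scaling, to between 0.429 and 0.549 times the CONTROL level (9 embryos per group), whereas under TMM scaling, described below, none of the 4 passed the test and *Eed* was at a log2 fold change of 0.046. The 3 H3K4 methyltransferases, *Suz12* and both H3K27 demethylases did not pass the test. Thus 4 of 10 genes were lower and 0 higher at an adjusted p under 0.05 (edgeR), where 29.8% of the 18447 genes tested were lower and 1.4% higher. The median log2 fold change of the 10 was −0.64, close to the −0.70 of all genes tested, and 5 of the 10 lay below that median of all genes. The plot of normalised counts by embryo shows the 10 genes.

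**Figure D1:**
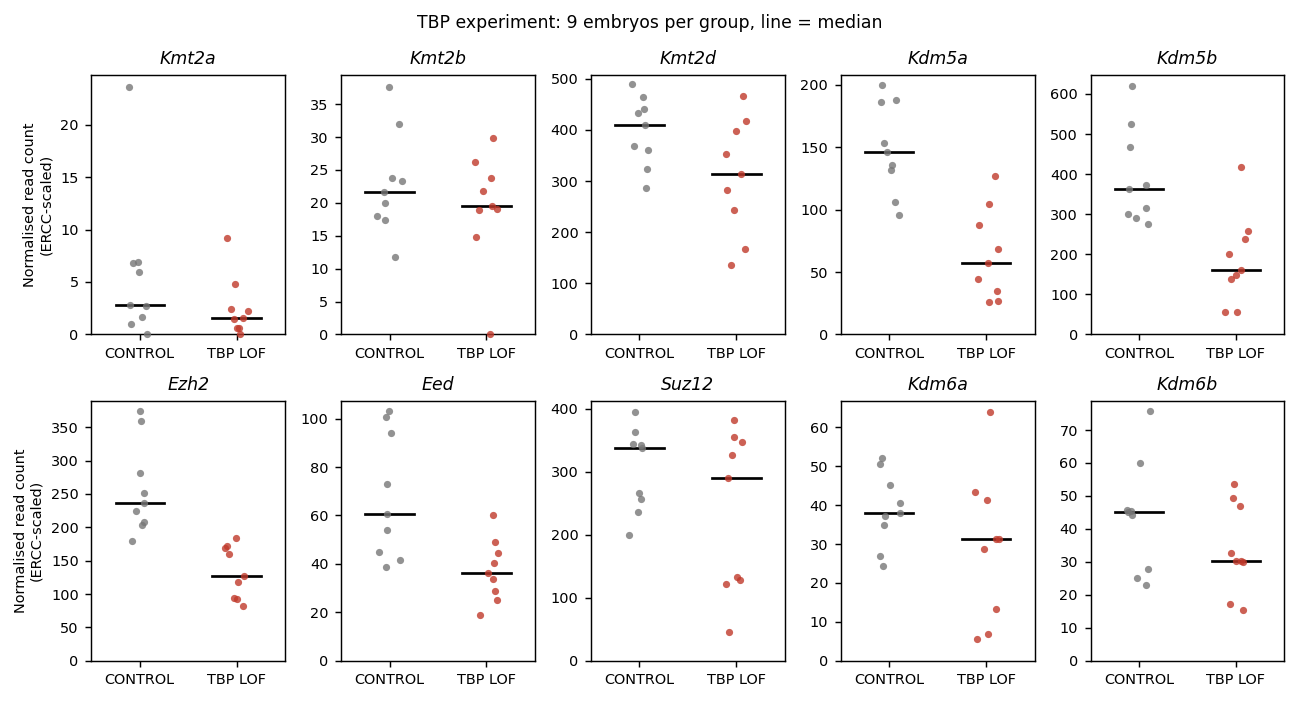
Normalised read count (ERCC-scaled) of each gene in the TBP experiment, with one point per embryo, 9 CONTROL in grey and 9 TBP LOF in red, and a line at the group median. All 9 LOF embryos lay below the CONTROL median for *Kdm5a*, *Ezh2* and *Eed* and 8 of 9 for *Kdm5b*, while *Suz12* counts of the LOF embryos spanned 45.6 to 383. Under TMM scaling, described below, the LOF embryos below the CONTROL median numbered 6 for *Kdm5a*, 6 for *Ezh2*, 3 for *Eed* and 5 for *Kdm5b*.

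*Kdm5a* (chr6:120364124-120444574), an H3K4 demethylase, had 26.4, 57.4 and 127 normalised reads in the lowest, median and highest TBP LOF embryo. The same values were 96.0, 146 and 200 in CONTROL embryos. The groups overlapped slightly, with 7 of 9 LOF embryos under the lowest CONTROL embryo, and the log2 fold change was −1.22 (SE 0.32, 95% interval −1.85 to −0.59, adjusted p = 0.00176). The first 251 bases of *Kdm5a* overlap the start of *Ccdc77* on the other strand, and the strand setting of the counting was not given in the sources used here. *Ccdc77*, for which 675 reads were counted in the TBP experiment, also fell (−2.19 on the log2 scale, SE 0.35, adjusted p = 1.3e-06).

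*Kdm5b* (chr1:134560171-134635285), its close relative, had 55.5, 160 and 419 normalised reads in the lowest, median and highest TBP LOF embryo, and 276, 364 and 620 in CONTROL embryos. LOF embryos lay under the lowest CONTROL embryo in 8 of 9 cases, and the ninth, embryo 10, was above the CONTROL median. The log2 fold change was −1.08 (SE 0.32, 95% interval −1.71 to −0.44, adjusted p = 0.00589).

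*Ezh2* (chr6:47530139-47595341), the catalytic subunit of PRC2, had 82.3, 127 and 184 normalised reads in the lowest, median and highest TBP LOF embryo, and 180, 237 and 375 in CONTROL embryos. Only the highest LOF embryo reached the CONTROL range. The log2 fold change was −0.96 (SE 0.28, 95% interval −1.52 to −0.39, adjusted p = 0.00622).

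*Eed* (chr7:89954654-89980983), the subunit that binds trimethylated H3K27, had 19.1, 36.3 and 60.3 normalised reads in the lowest, median and highest TBP LOF embryo, and 38.5, 60.7 and 103 in CONTROL embryos. LOF embryos lay under the lowest CONTROL embryo in 5 of 9 cases, so that the groups overlapped more than for *Ezh2*. The log2 fold change was −0.87 (SE 0.32, 95% interval −1.51 to −0.22, adjusted p = 0.0328), and this call was lost when any of 6 single embryos was left out (LOF embryos 1, 5 and 7, CONTROL embryos 6, 8 and 10; adjusted p up to 0.0739) and when no filter on low counts was applied (adjusted p = 0.0531). With the embryo number, which is shared between groups, as a replicate block, the call was lost too (−0.72, edgeR adjusted p = 0.1). The start of *Eed* is covered by E230029C05Rik on the other strand, a transcript with 65 reads in the TBP experiment that also fell (−2.07, SE 0.78, adjusted p = 0.0343).

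*Suz12* (chr11:79993106-80034123), the scaffold of PRC2, had 45.6, 291 and 383 normalised reads in the lowest, median and highest TBP LOF embryo, and 200, 338 and 395 in CONTROL embryos. In 4 LOF embryos it lay under the lowest CONTROL embryo, at 45.6, 121, 129 and 133, and in the other 5 within the CONTROL range, at 291 to 383. The log2 fold change of −0.37 did not pass the test (SE 0.31, 95% interval −0.99 to 0.26, adjusted p = 0.414), and the interval includes the decreases fitted for *Ezh2* and *Eed*. A transcript inside its locus on the other strand, Gm26563, had 850 reads in the TBP experiment and fell (−1.54 on the log2 scale, SE 0.40, adjusted p = 0.00205). The other opposite-strand transcripts tested in these loci did not pass, namely Gm26625 in *Ezh2* (60 reads, −1.33, adjusted p = 0.178) and *Kdm6bos* in *Kdm6b* (31 reads, −0.45, adjusted p = 0.769).

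*Kmt2d* (chr15:98831669-98871204), a methyltransferase known for H3K4 monomethylation at enhancers, had 136, 313 and 466 normalised reads in the lowest, median and highest TBP LOF embryo, and 287, 410 and 490 in CONTROL embryos. LOF embryos lay under the lowest CONTROL embryo in 4 of 9 cases (log2 fold change −0.37, SE 0.28, 95% interval −0.93 to 0.20, adjusted p = 0.357). *Kmt2b* (chr7:30568858-30588726), the main H3K4 methyltransferase of the growing oocyte, had 0, 19.6 and 29.9 normalised reads in LOF and 11.8, 21.7 and 37.6 in CONTROL embryos, and the groups overlapped nearly throughout (−0.28, SE 0.44, 95% interval −1.17 to 0.61, adjusted p = 0.695). *Kmt2a* (chr9:44803355-44881296), a methyltransferase best known for maintaining *Hox* gene expression, had 61 reads in all 18 embryos together. Its groups overlapped at 0 to 9.19 and 0 to 23.6 normalised reads, and its log2 fold change of −1.19 did not pass the test (95% interval −2.72 to 0.34, adjusted p = 0.255).

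*Kdm6a* (chrX:18162575-18279936), an H3K27 demethylase on the X chromosome, had 5.53, 31.2 and 63.9 normalised reads in the lowest, median and highest TBP LOF embryo, and 24.4, 38.0 and 52.1 in CONTROL embryos. LOF embryos lay under the lowest CONTROL embryo in 3 of 9 cases and above the highest in 1 (log2 fold change −0.42, SE 0.38, 95% interval −1.18 to 0.33, adjusted p = 0.438). At least 3 reads over the 4 Y-linked genes *Kdm5d*, *Uty*, *Ddx3y* and *Eif2s3y* were found in 3 of 9 TBP LOF and 8 of 9 CONTROL embryos, and the part of embryo sex in the values of *Kdm6a* and of the other genes in the TBP experiment was not tested. *Kdm6b* (chr11:69398508-69413675), the other H3K27 demethylase, had 15.5, 30.3 and 53.7 normalised reads in LOF and 23.0, 45.1 and 75.8 in CONTROL embryos, with overlapping groups (−0.36, SE 0.34, 95% interval −1.05 to 0.32, adjusted p = 0.469).

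The lower counts were unevenly spread over the LOF embryos. In LOF embryo 11, 9 of the 10 genes lay below the lowest CONTROL embryo, in embryo 7 it was 7, and in embryos 5 and 9 it was 6. The number was 4 in embryo 1, 3 in each of embryos 2, 6 and 8, and 1 in embryo 10. In embryos 11, 7, 5 and 9 all 10 genes were below the CONTROL median, and these were also the 4 embryos with the low *Suz12* counts. Their spike-in shares were 6.03%, 6.12%, 4.41% and 4.62%, and those of the other 5 LOF embryos were 2.67% to 4.38%. Since a higher spike-in share lowers every ERCC-scaled count of an embryo, these values are not independent of one another.

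The calls depended on the scaling. With edgeR's TMM factors, which assume that most genes do not change, 0 of 10 genes passed the test in either direction, where 12.9% of genes tested were lower and 13.2% higher. The median of all genes moved from −0.70 to 0.13, and that of the 10 genes to 0.16. The log2 fold change of *Kdm5a* was then −0.39 (95% interval −0.85 to 0.073, adjusted p = 0.215), that of *Kdm5b* −0.26 (adjusted p = 0.447) and that of *Ezh2* −0.072 (adjusted p = 0.808). *Eed*, at 0.046, *Suz12*, at 0.33, *Kmt2b*, at 0.50, *Kmt2d*, at 0.49, *Kdm6a*, at 0.28, and *Kdm6b*, at 0.48, changed sign, none of them past the threshold, and *Kmt2d* alone of the 10 had an unadjusted p under 0.05 (p = 0.0206, adjusted p = 0.0709), where 37.8% of all genes tested did. A change of scaling shifts all genes by nearly the same amount, so the distance of a gene from the median of all genes changes little by construction. Relative to that median, *Kdm5a* was lower by −0.52 under both scalings, and *Kdm5b* by −0.37 and −0.38. *Kmt2d* was above it by 0.34 and 0.36. *Ezh2* and *Eed* lay closer to it on spike-in scaling, lower by −0.25 and −0.16. None of these distances was tested. The plot of log2 fold changes under both scalings sets these values side by side.

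**Figure D2:**
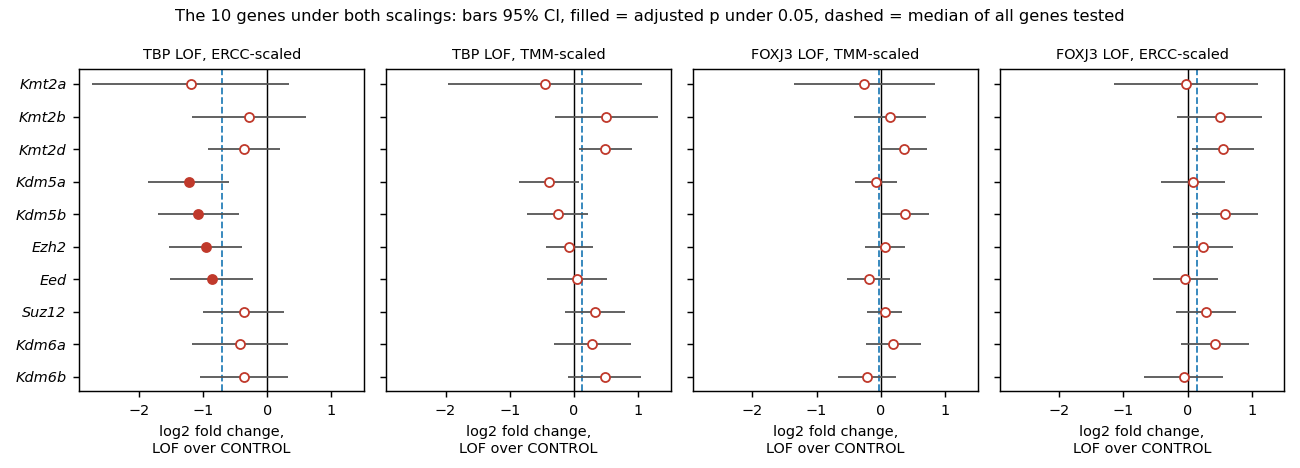
Log2 fold change (LOF over CONTROL, horizontal axis) of the 10 genes in the TBP and FOXJ3 experiments under spike-in (ERCC) and TMM scaling. Bars are 95% intervals, filled points have an adjusted p under 0.05 and the dashed line is the median of all genes tested, which lies at −0.70 (ERCC) and 0.13 (TMM) for TBP and at −0.027 (TMM) and 0.15 (ERCC) for FOXJ3. The 4 filled points are *Kdm5a*, *Kdm5b*, *Ezh2* and *Eed* in the ERCC-scaled TBP experiment.

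The share of a gene in the reads of a paralog pair within an embryo does not depend on the scaling. Such shares are given as descriptions, to be set against the same share in the other group, and are not relative transcript levels. *Kdm5b* made up a median of 73.2% of the reads of *Kdm5b* and *Kdm5a* in TBP LOF embryos (67.1% to 81.1%, 9 embryos), and 72.2% in CONTROL embryos (66.5% to 79.6%, 9 embryos), so that the ranges of the pair nearly coincided. *Ezh2* made up a median of 81.9% of the reads of *Ezh2* and *Ezh1*, the gene of its alternative catalytic subunit, in LOF embryos (78.8% to 90.7%), and 82.1% in CONTROL embryos (75.8% to 86.8%). *Kdm6b* made up a median of 54.4% of the reads of *Kdm6b* and *Kdm6a* in LOF embryos (35.4% to 85.5%), and 52.9% in CONTROL embryos (35.8% to 63.2%). *Kmt2b* took a median of 91.7% of the few reads of *Kmt2b* and *Kmt2a* in the 8 LOF embryos that had any, and 87.5% in CONTROL embryos. The ranges of LOF and CONTROL embryos overlapped for each of the 4 pairs.

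**Figure D3:**
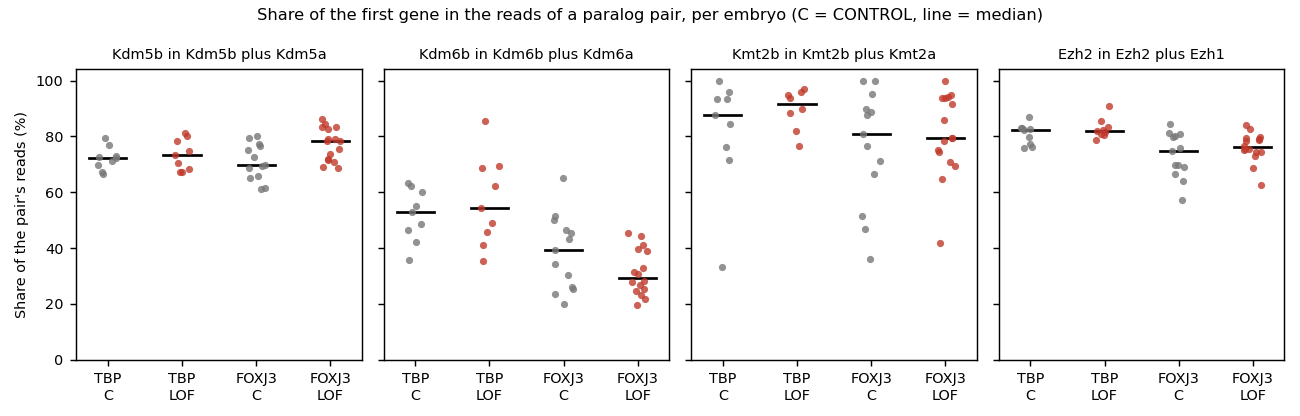
Share of the first-named gene in the reads of a paralog pair (vertical axis, percent) in each embryo of the 4 groups, with CONTROL in grey, LOF in red and a line at the median. The *Kdm5b* share has medians of 72.2% and 73.2% in the TBP experiment and of 69.8% and 78.2% in the FOXJ3 experiment, CONTROL first.

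Of 34 other genes listed for the same pathways, 33 were matched and tested in the TBP experiment, and 11 were lower and 0 higher, at a median log2 fold change of −0.52, where 29.8% of all genes tested were lower and 1.4% higher at a median of −0.70. By role, the lower genes were 2 of 6 other H3K4 methyltransferases, 4 of 12 subunits of the COMPASS methyltransferase complexes, 1 of 4 other H3K4 demethylases, 3 of 9 other PRC2 subunits and 1 of 2 other H3K27 demethylases. The 4 with the smallest adjusted p were *Uty*, the Y-linked relative of *Kdm6a* (−4.31, SE 0.64, adjusted p = 4.3e-07), *Rbbp5*, a core COMPASS subunit (−2.06, SE 0.43, adjusted p = 0.000128), *Kdm5d*, the Y-linked relative of *Kdm5a* and *Kdm5b* (−3.29, SE 0.83, adjusted p = 0.00135), and *Aebp2*, an accessory subunit of PRC2 (−1.21, SE 0.31, adjusted p = 0.0018). Under TMM, 3 of the 33 were lower (*Rbbp5*, *Uty* and *Kdm5d*) and 5 higher, where 12.9% of all genes were lower and 13.2% higher, and *Aebp2* did not pass the test (−0.41, adjusted p = 0.136). Y-linked reads were found in fewer TBP LOF than CONTROL embryos, as given beside *Kdm6a*. *Uty* had a read in 3 of 9 LOF embryos (at most 3.32 CPM) and in 8 of 9 CONTROL embryos (at most 17.5 CPM). *Kdm5d* had a read in 3 of 9 LOF (at most 1.28 CPM) and 8 of 9 CONTROL embryos (at most 4.92 CPM). The parts of embryo sex and of the level per male embryo in the decreases of *Uty* and *Kdm5d* were not tested. Without these 2 genes, 9 of 31 were lower.

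The next question was whether FOXJ3 depletion moved the same enzymes. Here counts were scaled by TMM, and library batch was a term of the model. None of the 10 genes passed the test, where 0.0107% of the 18626 genes tested did (2 genes, edgeR), and DESeq2 also called 0 of the 10. At an unadjusted p under 0.05 there were 2 of the 10, *Kmt2d* and *Kdm5b*, against 5.69% of genes tested. The 10 log2 fold changes lay between −0.25 and 0.38, with a median of 0.062 and the median of all genes at −0.027.

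*Kdm5b* had 281, 421 and 646 normalised reads in the lowest, median and highest FOXJ3 LOF embryo, and 102, 325 and 500 in CONTROL embryos. The groups overlapped over most of their range, and the log2 fold change was 0.38 (SE 0.18, 95% interval 0.021 to 0.75, unadjusted p = 0.0386, adjusted p = 0.861 in edgeR). Within batches, the medians of LOF and CONTROL embryos were 406 and 361 in batch 1 and 437 and 318 in batch 2.

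*Kmt2d* had 238, 346 and 573 normalised reads in the lowest, median and highest FOXJ3 LOF embryo, and 123, 258 and 461 in CONTROL embryos. The fitted difference was 0.37 on the log2 scale (SE 0.18, 95% interval 0.015 to 0.72, unadjusted p = 0.0416, adjusted p = 0.861 in edgeR). The medians of LOF and CONTROL embryos were 269 and 270 in batch 1 and 460 and 223 in batch 2, so that the higher values lay in batch 2.

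For the other 8 genes the 95% intervals included 0. They were narrowest for *Suz12* (−0.21 to 0.33), *Ezh2* (−0.25 to 0.37) and *Kdm5a* (−0.40 to 0.25), the last of which stood at −0.076 with TMM and at 0.082 with spike-in scaling. *Eed*, the gene with the forkhead letters in its promoter window, had 41.8, 72.8 and 151 normalised reads in the lowest, median and highest FOXJ3 LOF embryo and 49.9, 86.8 and 128 in CONTROL embryos (log2 fold change −0.19, SE 0.17, 95% interval −0.53 to 0.15, adjusted p = 0.944). *Kdm6a* (0.19), *Kdm6b* (−0.21) and *Kmt2b* (0.14) also had overlapping groups. *Kmt2a* ran in opposite directions in the batches, with medians of 7.52 and 2.41 normalised reads in LOF and CONTROL embryos of batch 1 and of 2.09 and 11.5 in batch 2, from 178 reads in 29 embryos. The plot of FOXJ3 values by batch shows both.

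**Figure D4:**
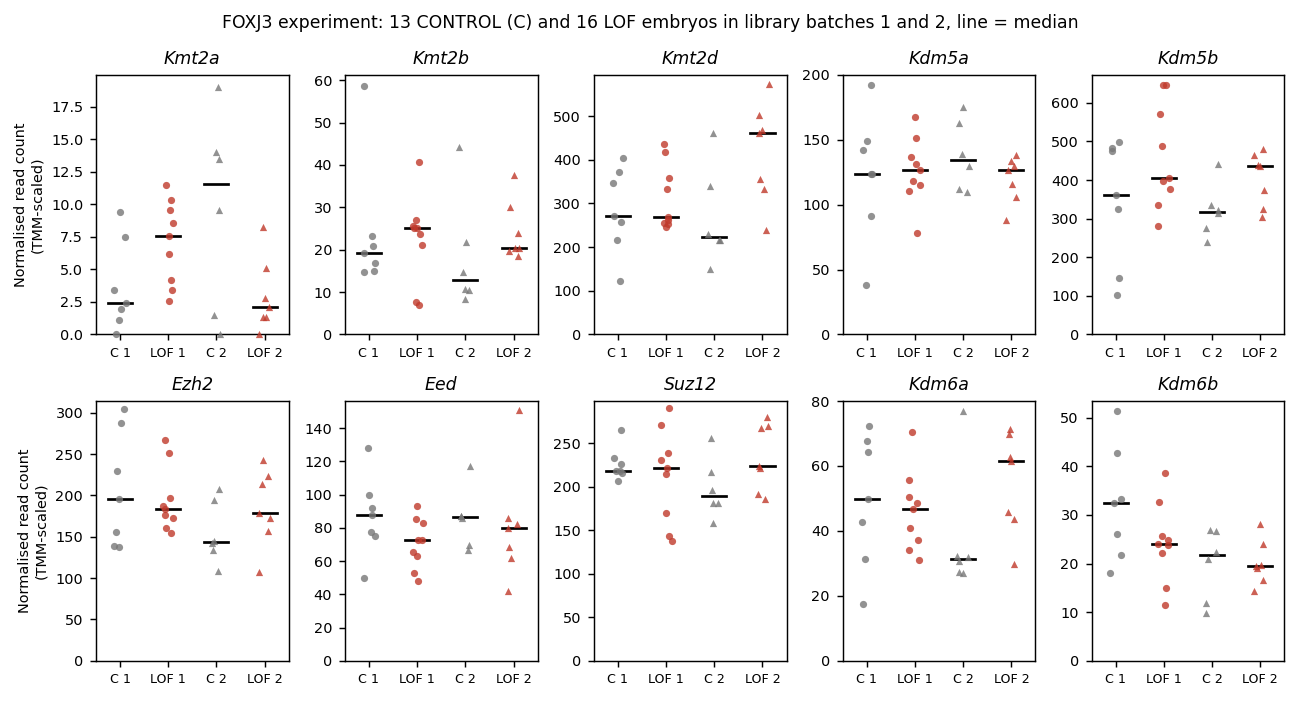
Normalised read count (TMM-scaled) of each gene in the FOXJ3 experiment, with one point per embryo, CONTROL (C) in grey and FOXJ3 LOF in red, separated into library batch 1 (circles) and batch 2 (triangles), and a line at the median. The groups overlap for all 10 genes, and *Kmt2d* has medians of 269 (LOF) and 270 (C) in batch 1 and 460 and 223 in batch 2.

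In the FOXJ3 experiment *Kdm5b* made up a median of 78.2% of the reads of its pair in LOF embryos (68.8% to 86.2%, 16 embryos) and 69.8% in CONTROL embryos (61.3% to 80.2%, 13 embryos). *Kdm6b* made up 29.4% of its pair in LOF embryos (19.6% to 45.3%) and 39.3% in CONTROL embryos (20% to 65.2%). *Ezh2* made up 76.1% of its pair in LOF embryos (62.6% to 83.9%) and 74.7% in CONTROL embryos (57.1% to 84.4%), and *Kmt2b* 79.4% (41.7% to 100%) and 81.0% (36.2% to 100%). The ranges overlapped for all 4 pairs, and no share was tested. Of the 32 other pathway genes tested, 0 passed the adjusted threshold (edgeR) and 1, *Kmt2c*, had an unadjusted p under 0.05 (0.33, SE 0.13, p = 0.0137, adjusted p = 0.793). The mCherry-Trim21 level was lower by 1.00 on the log2 scale in FOXJ3 LOF than in CONTROL embryos (p = 0.0119 in a permutation test, two-sided, and 0.0358 after adjustment). With it as a covariate, 0 of the 10 genes passed the test.

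Last, the effects of both depletions were compared in one fit of all 47 embryos on spike-in scaling, with a term for the difference. The TBP effect was lower than the FOXJ3 effect for 4 of 10 genes and higher for 0, where 28.2% of the 18759 genes tested had a lower TBP effect. These were *Kdm5b*, by −1.66 on the log2 scale (SE 0.42, 95% interval −2.50 to −0.82, adjusted p = 0.0015), *Kdm5a*, by −1.31 (SE 0.40, adjusted p = 0.00899), *Ezh2*, by −1.20 (SE 0.36, adjusted p = 0.00671), and *Kmt2d*, by −0.92 (SE 0.36, adjusted p = 0.0465). *Eed*, which passed the test in the TBP experiment alone, did not here (−0.83, SE 0.40, 95% interval −1.62 to −0.041, adjusted p = 0.11). The median difference was −0.88 over the 10 genes and −0.88 over all genes tested. Under TMM, 0 of the 10 differences passed the test, where 11.2% of all genes tested had a lower and 10.9% a higher TBP effect, and 2 of the 10 had an unadjusted p under 0.05, where 35% of all genes did (edgeR). The difference of *Kmt2d* changed sign, to 0.14. Without a filter on low counts *Kmt2d* did not pass either (adjusted p = 0.102). Antibody, IgG control and experiment differ together between both depletions, so that their parts in these differences cannot be told apart. Of 32 other pathway genes, 9 had a lower TBP effect and 0 a higher one, the 4 with the smallest adjusted p being *Rbbp5* (−2.08, adjusted p = 0.00121), *Aebp2* (−1.45, adjusted p = 0.00216), *Uty* (−4.21, adjusted p = 0.00219) and the H3K4 methyltransferase gene *Setd1a* (−1.39, adjusted p = 0.00877).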

How the data were processed

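The deposited values are expected counts, counted by the authors with TEcount per gene (gencode M20), transposable element (TE) family and ERCC spike-in from 5' reads mapped with STAR 2.7.11a (version per the submitters' processing notes) to GRCm38 carrying the mCherry-Trim21 construct. How reads of several copies were shared out, and the strand setting, were not given in the sources used here. All values were whole. The insertion tables were not used. Gene symbols and coordinates came from gencode M21.

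Embryos were kept with at least 500000 reads, 1000 genes, at most 10% mitochondrial and 15% ERCC reads, as the Methods state. Features (genes, TE families) seen with 1 read or more in 25% or more of an experiment's embryos were tested together with edgeR 4.0.16 (two-sided quasi-likelihood test, Benjamini-Hochberg adjustment, threshold 0.05), scaled by the median of ratios over 42 ERCC transcripts for TBP and by TMM for FOXJ3. Standard errors were derived from the F statistic. The authors used DESeq2. DESeq2 1.42.0, other scalings and filters, covariates and leaving out embryos were alternatives. The test was also run on counts simulated from the means, dispersions and size factors of these embryos. Those counts held no collection effect and no spike-in error, so the run does not check the test against either. Quality measures were compared by permutation tests, exact for TBP and with 100000 resamples for FOXJ3. Software was R 4.3.3 and, in Python 3.11.15, scipy 1.17.1, pandas 2.3.3, numpy 2.4.6 and matplotlib 3.10.9.

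All 10 genes are named, and of the other pathway genes that passed, up to 4 per comparison and direction, by adjusted p, besides the targets *Tbp* and *Foxj3*. *Kmt2c*, the genes overlapping the 10 and the single marker genes were named after their values were seen. The genes and lists were chosen with earlier results of these data known. Embryos of the TBP experiment came from 3 collections that the labels do not assign, so p-values measure the spread between embryos. Reads carry no molecular identifiers, so PCR copies are not independent molecules, and depth per embryo is given in the results.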

Additional observations from a re-analysis of the deposited data

Results flagged for a closer look

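Of the counts and paralog shares in the TBP experiment, 3 stood apart from the other embryos of their group by Dixon's criterion, which chance meets in about 1 of 20 groups, over 28 groups of values tested. The FOXJ3 groups hold more than 10 embryos each and were not tested. *Kmt2a* was highest in TBP CONTROL embryo 1, at 23.6 normalised reads (14 reads), and the share of *Kmt2b* in the reads of *Kmt2b* and *Kmt2a* was lowest in the same embryo, at 33.3% of 21 reads. *Kmt2b* was lowest in TBP LOF embryo 11, at 0 reads, which was also the embryo with 9 of the 10 genes below the CONTROL range. That embryo had the most counted reads of the 9 TBP LOF embryos (4166903) and a spike-in share of 6.03%.

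The effects of TBP and FOXJ3 depletion differed, by a term for the difference in edgeR on spike-in scaling, for *Kdm5b* (−1.66), *Kdm5a* (−1.31), *Ezh2* (−1.20) and *Kmt2d* (−0.92). Of all genes tested, 28.2% had a lower TBP effect, and the median difference of all genes was −0.88. Under TMM none of these differences passed the test, and that of *Kmt2d* was 0.14. Without a filter on low counts *Kmt2d* did not pass either (edgeR adjusted p = 0.102). For *Kmt2d* neither depletion passed the test on its own, with log2 fold changes on spike-in scaling of −0.37 after TBP depletion (adjusted p = 0.357) and 0.55 after FOXJ3 depletion (adjusted p = 0.963, both edgeR).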

How the results depend on the processing

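In the TBP experiment, 4 of 10 genes were lower under DESeq2, the sum of ERCC reads, filterByExpr, all embryos and the mCherry-Trim21 covariate, 3 without a filter, and 3 to 4 when 1 embryo was left out. Over all genes, the lower ones numbered 5617 of 18447 under DESeq2, 5335 of 18447 with the sum of ERCC reads and 4056 of 7699 under filterByExpr. They numbered 5555 of 18553 with all embryos, 5564 of 18447 with the covariate and 6092 of 28073 without a filter. Without 1 embryo they numbered 4952 of 18173 to 5685 of 18182. The median of all genes was −0.90 under filterByExpr. With TMM or DESeq2's size factors on genes and TE families, 0 of the 10 were lower, and the median of all genes was at 0.13 and 0.15. Over all 18447 genes, 2382 were lower and 2437 higher with TMM, and 2375 lower and 2550 higher with DESeq2's size factors. Other pathway genes then counted 3 and 3 lower and 5 and 7 higher, and 8 to 13 lower without 1 embryo. Signs changed under DESeq2's size factors to 0.54 (*Kmt2b*), 0.51 (*Kmt2d*), 0.071 (*Eed*), 0.35 (*Suz12*), 0.30 (*Kdm6a*) and 0.49 (*Kdm6b*), and under TMM to 0.50, 0.49, 0.046, 0.33, 0.28 and 0.48 in the same order. Leaving out 1 embryo changed 0 of 180 signs. *Kmt2a* was not tested under filterByExpr.

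Over all genes, TMM gave 2437 higher rather than 258 and 2382 lower rather than 5497. For FOXJ3, 0 of the 10 passed in any alternative, and the genes called numbered 2 (edgeR), 4 under DESeq2 or with no filter, 3 without the batch term, 1 with filterByExpr and 0 in each batch alone or with the mCherry-Trim21 covariate; the cause was not tested. Signs changed for *Kdm5a* with ERCC scaling (0.082), *Kmt2b* (−0.033) and *Ezh2* (−0.051) with the mCherry-Trim21 covariate, *Kmt2a* (0.89), *Kmt2b* (−0.10), *Kdm5a* (0.018), *Ezh2* (−0.11), *Suz12* (−0.11) and *Kdm6a* (−0.11) in batch 1 alone, and *Kdm6b* (0.041) in batch 2 alone. For the difference between depletions, TMM gave 0 of the 10 lower, and 0 lower and 2 higher of 32 other pathway genes (11.2% lower and 10.9% higher over all genes), with signs changed for *Kmt2b* (0.38), *Kmt2d* (0.14), *Eed* (0.25), *Suz12* (0.28), *Kdm6a* (0.088) and *Kdm6b* (0.71). Without a filter, *Kmt2d* did not pass the test (adjusted p = 0.102, edgeR).

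Embryo numbers are shared between groups, and the labels do not say whether a number marks a common origin. Correlations of same-numbered embryos' deviations lay between −0.022 and 0.10 for TBP (over 0.1 in 1 of 7 pairs) and −0.12 and 0.16 for FOXJ3 (3 of 12). With the number as a replicate block, 3 of 10 genes were lower after TBP depletion (*Eed* at −0.72, adjusted p = 0.1 in edgeR). Over all 18447 genes, 4860 were called (4579 lower and 281 higher) rather than 5755 (5497 lower and 258 higher). After FOXJ3 depletion the block gave 0 of 10 and 0 of all 18626 genes, with *Kmt2a* at 0.035 and *Kdm5a* at 0.048. Depth was lowest for *Kmt2a* and *Kmt2b*, with 61 and 394 reads in the TBP embryos.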
